A study of Mus musculus with 12 samples.

Results

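Voltage-gated calcium channels were examined through 10 subunit genes, matched by symbol to the Ensembl identifiers of both deposited count tables, out of 38293 genes listed in each table. The list covered the pore-forming subunits Cacna1c and Cacna1d (L-type), Cacna1a (P/Q-type), and Cacna1g and Cacna1h (T-type), together with the cytosolic beta subunits Cacnb1, Cacnb2 and Cacnb3 and the extracellular alpha2delta subunits Cacna2d1 and Cacna2d2. It was selected on values of the Zeb2 comparison, in which Cacna1h and Cacna1a stood out. The values of all 10 genes in that comparison are therefore given as a description, without a test. The study also displayed Cacna1a, Cacna1h and Calm3 in both of its comparisons, so their values in wild-type hearts are not independent of that choice.

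The study used C57Bl/6J mice of 8 to 9 weeks. Ischaemia-reperfusion (IR) was made by tying the left anterior descending artery for 1 h, and hearts were collected 14 days later. Wild-type hearts after sham surgery (WT sham) were compared with wild-type hearts after IR (WT IR), and wild-type littermates after IR (Zeb2 WT IR) with mice carrying αMHC-Cre and the Rosa26-LoxStopLoxZeb2 allele after IR (Zeb2 cTg IR), with 3 mice in each of the 4 groups. The Cre is driven by the Myh6 promoter and acts in cardiomyocytes. The sources used here do not say when sham hearts were taken or whether the littermates carried Cre, so an effect of Cre and one of Zeb2 cannot be told apart. They also differ on the tissue, which is left ventricle in the labels, remote zone in the methods and infarct area with border zone in the design text.

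Zeb2 itself was the check of the labels. It was at 54.7, 57.7 and 67.0 CPM (counts scaled to a common library size) in Zeb2 WT IR and 55.5, 56.8 and 58.7 CPM in the Zeb2 cTg-labelled libraries (log2 fold change -0.07, SE 0.12, edgeR adjusted p = 0.75). The deposited counts thus did not show more Zeb2 RNA under the Zeb2 cTg label, and the label is used below as a name only. The study itself reported more Zeb2 by qPCR and immunofluorescence in Zeb2 cTg hearts. Whether those were the sequenced hearts is not given in the sources used here. In wild-type hearts Zeb2 was at 51.6 ± 3.73 CPM (SD, n = 3) in sham and 71.5 ± 11.2 after IR (log2 fold change 0.47, SE 0.12, adjusted p = 0.0219), a call lost with GC correction and without replicate 1 or 2 of WT sham or replicate 2 of WT IR (adjusted p from 0.0699 to 0.112). The 12 libraries held 20215781 to 36816818 counts, of which 60.6% to 73.5% lay on mitochondrial genes, and 1 CPM stood for 17.2 to 37.8 counts. Replicate 1 of WT IR lay closest to sham in several marker genes. Its Postn, a fibroblast gene induced by injury, was at 198 CPM against 454 and 699.9 in the other two WT IR libraries and 24.4 to 65.2 in sham.

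Voltage-gated calcium channels open when the membrane depolarizes. L-type channels need strong depolarization and carry the calcium current that triggers contraction of ventricular cardiomyocytes. T-type channels open near the resting potential, are prominent in the embryonic ventricle and in adult pacemaker tissue, and are known to reappear in diseased ventricle. P/Q-type channels are best known from nerve terminals. High-voltage-activated pores work with a beta subunit, which brings the channel to the membrane and sets its gating, and an alpha2delta subunit, which raises the number of channels at the surface. T-type pores do not require either.

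This split between the families can be read in the coding sequence. The beta subunit binds a conserved stretch in the linker between the first and second repeats of the pore-forming subunit. A search of the longest reading frame of each gene (GENCODE M21, GRCm38) found the stretch once in Cacna1c, Cacna1d and Cacna1a and not in Cacna1g or Cacna1h. It is shown because it separates the pores that use the beta subunits counted here from those that do not. Capitals mark the codons for tyrosine and tryptophan that are central to binding.
Cacna1c: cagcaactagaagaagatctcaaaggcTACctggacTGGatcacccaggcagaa
Cacna1d: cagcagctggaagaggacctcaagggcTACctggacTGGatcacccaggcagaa
Cacna1a: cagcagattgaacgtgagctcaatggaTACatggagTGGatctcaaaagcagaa

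The stretch covers 54 coding bases. It lies in 1 exon at chr6:118734906-118734959 (minus strand) in Cacna1c and chr14:30142600-30142653 (minus strand) in Cacna1d, and is split over 2 exons within chr8:84536125-84536403 (plus strand) in Cacna1a. The 2 L-type genes differ at 5 of the 54 bases, and Cacna1a differs from Cacna1c at 15.

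The selectivity filter, which lets calcium through and holds sodium back, is built by 1 acidic residue from each of 4 repeats. The coding sequence held 4 such codons in each of the 5 pore-forming genes. All 4 were glutamate codons in Cacna1c, Cacna1d and Cacna1a, whereas Cacna1g and Cacna1h each had 2 glutamate and 2 aspartate codons. The families part at the third repeat and again at the last, and the third is shown with the filter codon in capitals.
Cacna1c: gtctccaccttcGAAgggtggcca
Cacna1d: gtctcaacttttGAGggctggccc
Cacna1a: gtgtccacaggaGAGggctggcca
Cacna1g: ctggcctccaagGATggctgggtt
Cacna1h: ctgtcatccaagGATggctgggta

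These 24 bases lie in coding exons at chr6:118656115-118656138 for Cacna1c, chr14:30100699-30100722 for Cacna1d, chr8:84581326-84581349 for Cacna1a, chr11:94426462-94426485 for Cacna1g and chr17:25383499-25383522 for Cacna1h. All read from the minus strand except Cacna1a.

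Compared per length of exon (CPM per kb, written RPKM), 3 genes carried most of the channel RNA in every group. Cacna2d1 was highest, followed by Cacna1c and then Cacnb2, and the libraries of neighbours in this order did not overlap except for Cacnb2 and Cacna1h in the Zeb2 cTg-labelled libraries. In WT sham these 3 genes were at 11.9 ± 1.55, 8.03 ± 0.145 and 3.56 ± 0.428 RPKM. The next gene, Cacna1g, was at 0.978 ± 0.0584 RPKM. Cacnb1 (0.449 ± 0.0569), Cacna1h (0.368 ± 0.0336), Cacnb3 (0.234 ± 0.0609), Cacna1a (0.156 ± 0.0284), Cacna1d (0.139 ± 0.0135) and Cacna2d2 (0.0926 ± 0.0121 RPKM) followed, and of these the libraries of Cacnb3 and Cacna1a, and of Cacna1a and Cacna1d, overlapped.

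Each class was thus led by 1 gene. Cacna1c made up 97.7% to 98.3% of L-type RPKM as group means, and Cacna2d1 99.2% to 99.6% of alpha2delta RPKM. Cacnb2, the main beta subunit of the heart, held 83.8% of beta RPKM in WT sham and 77.4% in WT IR, and 89.5% and 90.2% in the Zeb2 WT IR and Zeb2 cTg IR libraries. The T-type class was the one in which the leading gene differed between groups.

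**Figure D1:**
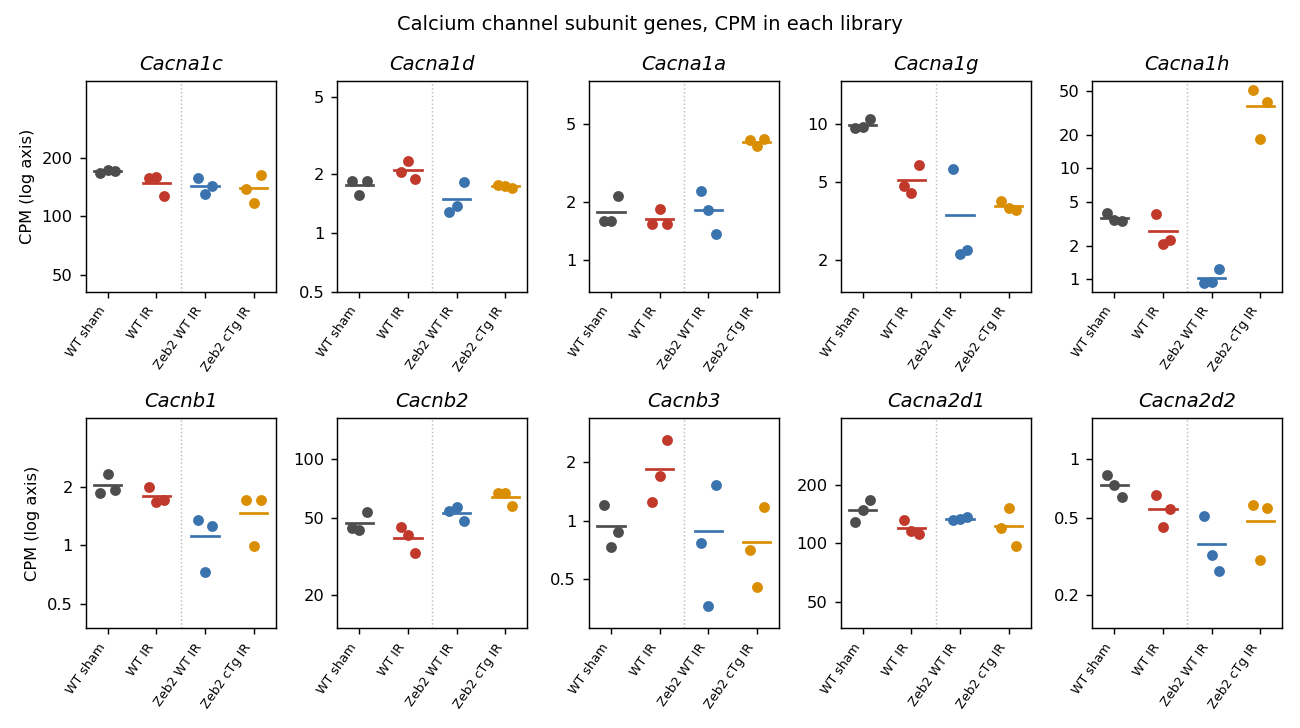
CPM of the 10 subunit genes in each library (vertical log axis) by group, with points for libraries and lines for group means; the dotted line separates the 2 count tables, which were normalized separately. Cacna1h lies between 18.5 and 51.6 CPM in the Zeb2 cTg-labelled libraries and between 0.916 and 3.97 CPM in the other 9, and Cacna1g is lower in WT IR than in WT sham.

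In wild-type hearts, the first question was how the channel genes stood 14 days after IR. Of the 10 genes, 1 passed the edgeR quasi-likelihood test, Cacna1g, which was lower, against 20.8% of the 13756 genes tested. Lower calls made up 9.74% of all genes tested and higher calls 11.0%. The libraries of the 2 groups did not overlap for 4 of the 10 genes, which is close to the 39.8% of all genes. The log2 fold change was below 0 for 8 of the 10 genes, with a median of -0.23 against 0.0064 over all genes.

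Cacna1g, which encodes the T-type pore Cav3.1, was at 9.49, 9.65 and 10.6 CPM in WT sham and 4.81, 4.39 and 6.15 CPM in WT IR. All IR libraries lay below all sham libraries. Cacna1g was 1.94-fold lower after IR (log2 fold change -0.96, SE 0.13, adjusted p = 0.00402), and the call held under all 15 alternative settings. The marker genes of the conduction system, where T-type channels are abundant, moved too. Of 4 tested, Hcn4, a pacemaker channel gene, and Cntn2, a Purkinje cell gene, were lower (log2 fold change -1.18 and -1.43, adjusted p = 0.00797 and 0.00356), and the 6 listed markers summed to 11.3 to 12.1 CPM in WT sham and 6.60 to 7.75 in WT IR. Isl1 had 1 count in 1 of these libraries and none in the others, and Shox2 did not pass the filter on low counts. In whole tissue, fewer cells of a type and less RNA per cell cannot be told apart, and the part of these cells in the fall of Cacna1g was not tested.

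Cacna1h, which encodes the T-type pore Cav3.2, was at 3.97, 3.43 and 3.37 CPM in WT sham and 3.84, 2.09 and 2.24 CPM in WT IR. The groups overlapped through replicate 1 of WT IR, which lay within the sham range. The difference did not pass (log2 fold change -0.40, SE 0.23, 95% interval -0.92 to 0.11, adjusted p = 0.232). Without that library it was -0.74 (adjusted p = 0.00376).

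The L-type genes showed smaller differences. Cacna1c, which encodes the main ventricular pore Cav1.2, was at 167, 173 and 170.2 CPM in WT sham and 157, 159 and 126 CPM in WT IR. The 2 groups did not overlap, yet the difference did not pass (log2 fold change -0.21, SE 0.10, 95% interval -0.43 to 0.02, adjusted p = 0.172). Cacna1d, which encodes the Cav1.3 pore of atrial and pacemaker cells, was at 1.85, 1.56 and 1.86 CPM in WT sham and 2.06, 2.35 and 1.90 CPM in WT IR. It was nominally on the other side, with groups that did not overlap (log2 fold change 0.28, SE 0.17, adjusted p = 0.274).

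Cacna1a, the P/Q-type pore gene, was at 1.59, 1.59 and 2.15 CPM in WT sham and 1.53, 1.82 and 1.53 CPM in WT IR, with overlapping groups (log2 fold change -0.09, SE 0.19, adjusted p = 0.763). Its sign turned under 4 of the 15 settings.

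Among the beta subunits, Cacnb3 had the largest difference. It was at 1.21, 0.735 and 0.873 CPM in WT sham and 1.25, 1.69 and 2.61 CPM in WT IR, on 15 to 70 counts per library. All IR libraries lay above all sham libraries, but the difference stayed short of the threshold (log2 fold change 0.96, SE 0.31, adjusted p = 0.0557), and it passed in 6 of the 15 settings. Cacnb2 was at 44.2, 43.4 and 53.6 CPM in WT sham and 44.8, 41.0 and 32.8 CPM in WT IR (log2 fold change -0.25, SE 0.12, adjusted p = 0.187). Cacnb1, the beta subunit best known from skeletal muscle, ranged from 1.85 to 2.33 CPM in WT sham and from 1.67 to 2.00 in WT IR (log2 fold change -0.19, SE 0.18, adjusted p = 0.456). Both overlapped between the groups.

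Cacna2d1, the main cardiac alpha2delta gene, was at 128, 148 and 167 CPM in WT sham and 131, 116 and 112 CPM in WT IR. The groups overlapped, and the difference did not pass (log2 fold change -0.30, SE 0.11, adjusted p = 0.08). Cacna2d2 had 11 to 24 counts per library and was at 0.736 ± 0.0959 CPM in WT sham and 0.555 ± 0.103 CPM in WT IR (log2 fold change -0.43, SE 0.27, adjusted p = 0.271).

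Markers of other cell types moved in the same comparison. Of 6 fibroblast genes, 5 were higher in WT IR, and the list summed to 339 to 518 CPM in WT sham and 941 to 2290 in WT IR. All 5 immune genes were higher (57.3 to 64.6 against 75.7 to 142 CPM in sum), and 3 of 10 cardiomyocyte genes, Tnni3, Myl3 and Ryr2, were lower (58730 to 64810 against 45420 to 58500 CPM in sum). When libraries were scaled on the cardiomyocyte markers, Cacna1g was still lower (log2 fold change -0.60), while Cacna1c, Cacnb2 and Cacna2d1 came to 0.13, 0.08 and 0.04, beside a shift of 0.35 in the median of all genes. The part of the changed cell make-up in the values of the channel genes was not tested further.

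**Figure D2:**
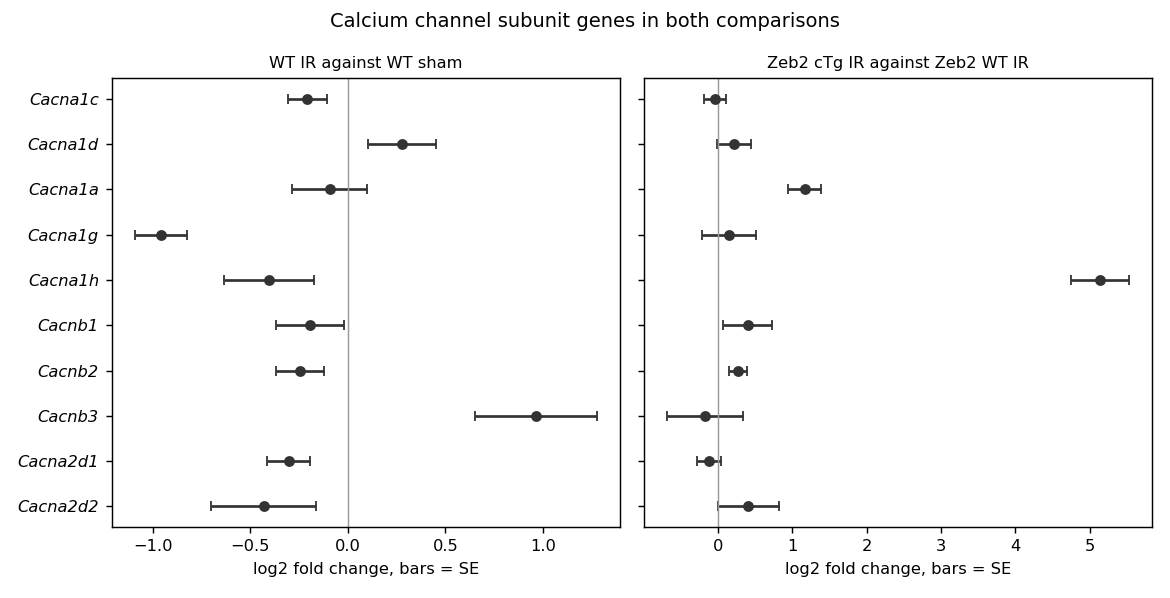
Log2 fold changes of the 10 genes in WT IR against WT sham (left) and Zeb2 cTg IR against Zeb2 WT IR (right), on horizontal axes of different range; points are estimates and bars are SE. Cacna1g stands at -0.96 on the left, and Cacna1h at 5.14 and Cacna1a at 1.16 on the right.

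The second comparison set the same genes in the Zeb2 cTg-labelled libraries against those in Zeb2 WT IR, all from injured hearts. Cacna1h and Cacna1a, on whose values the list was chosen, had the log2 fold changes farthest from 0. The groups did not overlap for Cacna1h, Cacna1a and Cacnb2, beside 26.2% of all genes, and the median log2 fold change of the 10 genes was 0.24 against 0.0059 over all genes. Nothing is read from these values, since the genes were picked with this comparison in view. Over all 13018 genes tested, 3.64% were called (2.14% higher and 1.51% lower).

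Cacna1h was at 0.916, 0.930 and 1.23 CPM in the Zeb2 WT IR libraries (25, 23 and 37 counts). It was at 51.6, 18.5 and 39.6 CPM in the Zeb2 cTg-labelled libraries (1231, 486 and 1411 counts). Every library of the second group lay far above every library of the first, and within it replicate 2 was the lowest. The group means were 1.03 ± 0.178 and 36.6 ± 16.7 CPM, and the fitted difference was 35.3-fold (log2 fold change 5.14, SE 0.39). Leaving out 1 library at a time gave 4.81 to 5.45, and the other settings 4.59 to 5.15. None of these values allows for the choice of the gene on this comparison.

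Per length, Cacna1h held rank 9 of the 10 genes in Zeb2 WT IR at 0.105 ± 0.0183 RPKM and rank 4 in Zeb2 cTg IR at 3.75 ± 1.71 RPKM, where its libraries overlapped those of Cacnb2 (4.83 ± 0.434 RPKM). It held rank 6 in WT sham and rank 7 in WT IR (0.279 ± 0.0996 RPKM). The tables were normalized separately, so levels in WT IR and Zeb2 WT IR are set side by side here without a test, although both are wild-type hearts 14 days after IR.

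Cacna1g, its T-type partner, did not share this difference. It was at 5.86, 2.14 and 2.23 CPM in Zeb2 WT IR and 4.02, 3.70 and 3.62 CPM in Zeb2 cTg IR. The second group lay within the range of the first, in which replicate 1 was high (log2 fold change 0.15, SE 0.36). Without that library the value was 0.78, and its sign turned under 5 of the 15 settings.

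The make-up of the T-type class differed accordingly. Cacna1h held 27.4% ± 2.73 of T-type RPKM in WT sham, 35.3% ± 9.16 in WT IR, 27.2% ± 11.7 in Zeb2 WT IR and 89.6% ± 4.98 in Zeb2 cTg IR (SD, n = 3). The T-type genes together held 13.9% ± 0.460 of the RPKM of the 5 pore-forming genes in WT sham and 9.85% ± 2.11 in WT IR. They held 5.78% ± 1.95 in Zeb2 WT IR and 35.8% ± 8.72 in Zeb2 cTg IR. In single Zeb2 cTg-labelled libraries this share ran from 27.5% to 44.8%, and in all other libraries it stayed at or below 14.2%.

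**Figure D3:**
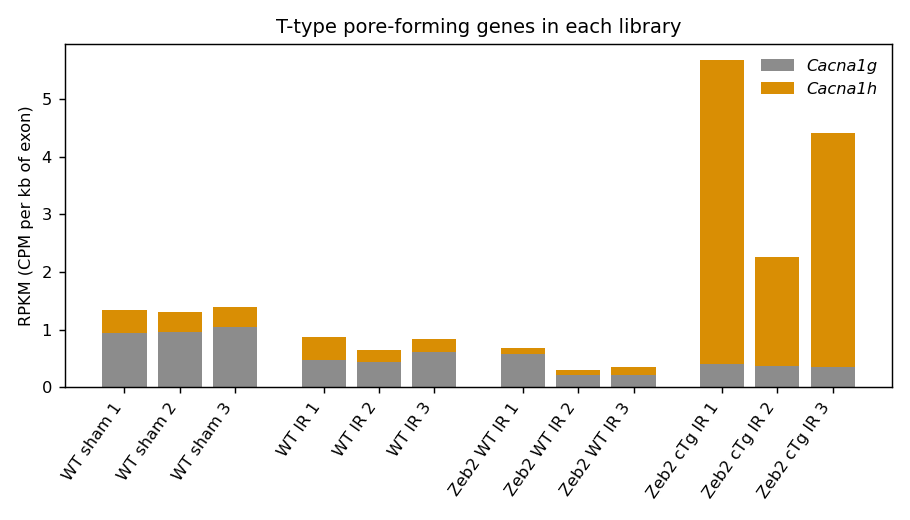
RPKM (CPM per kb of exon) of Cacna1g (grey) and Cacna1h (orange), stacked, in each of the 12 libraries. The stacked height is 1.30 to 1.39 in WT sham, 0.647 to 0.868 in WT IR, 0.307 to 0.672 in Zeb2 WT IR and 2.26 to 5.68 in the Zeb2 cTg-labelled libraries, in which Cacna1h makes up most of it.

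Cacna1a was at 2.27, 1.82 and 1.37 CPM in Zeb2 WT IR and 4.15, 3.85 and 4.21 CPM in Zeb2 cTg IR, on 41 to 150 counts. All libraries of the second group lay above all of the first, and the fitted difference was 2.24-fold (log2 fold change 1.16, SE 0.22). With 1 library left out at a time it ran from 0.99 to 1.36 on the log2 scale, again without allowance for the choice of the gene. The P/Q-type gene remained low per length, at 0.356 ± 0.0167 RPKM against 6.56 ± 1.10 RPKM for Cacna1c in the same libraries.

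The L-type genes differed by less than their error. Cacna1c was at 157, 130 and 142 CPM in Zeb2 WT IR and 137, 117 and 163 CPM in Zeb2 cTg IR (log2 fold change -0.04, SE 0.15). Cacna1d was at 1.28, 1.38 and 1.83 CPM in Zeb2 WT IR and 1.76, 1.75 and 1.71 CPM in Zeb2 cTg IR (log2 fold change 0.21, SE 0.23). The groups overlapped for both genes.

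Of the beta subunits, Cacnb2 was at 54.4, 56.8 and 48.0 CPM in Zeb2 WT IR and 67.3, 67.1 and 57.2 CPM in Zeb2 cTg IR. The groups did not overlap, but only narrowly, and the log2 fold change was 0.27 (SE 0.12). Cacnb1 (log2 fold change 0.40, SE 0.33) and Cacnb3 (-0.17, SE 0.51) overlapped, on 18 to 61 and 9 to 46 counts per library. Cacnb3 turned to 0.48 without replicate 3 of Zeb2 WT IR and to 0.09 without replicate 2 of Zeb2 cTg IR. The ratio of summed beta RPKM to that of the high-voltage-activated pores was 0.641 ± 0.0619 in Zeb2 WT IR and 0.774 ± 0.150 in Zeb2 cTg IR, against 0.510 ± 0.0461 in WT sham and 0.532 ± 0.0334 in WT IR.

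Cacna2d1 was at 132, 133 and 136 CPM in Zeb2 WT IR and 120.0, 151 and 96.7 CPM in Zeb2 cTg IR, so that the second group spread on both sides of the first (log2 fold change -0.12, SE 0.16). Cacna2d2 was at 0.368 ± 0.129 and 0.484 ± 0.156 CPM, on 8 to 20 counts per library (log2 fold change 0.40, SE 0.41).

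The base composition of transcripts moved with the fold changes in this table. Across 12892 genes Spearman's rho between GC content and log2 fold change was 0.55, and across 13609 genes in the wild-type table it was -0.29, each given as a description over genes that share libraries. Cacna1h (60.0% GC) and Cacna1a (58.4% GC) lie on the GC-rich side. The 453 genes within 1 percentage point of Cacna1h had a median log2 fold change of 0.55, with an upper quartile of 0.80, and the 726 genes near Cacna1a a median of 0.44. With a correction for GC content Cacna1h stood at 4.59 and Cacna1a at 0.77, and Cacnb2 (39.0% GC) at 0.50. Cacna1g and Cacnb1, of similar GC content to Cacna1h, came to -0.19 and -0.09, and Cacnb3 (61.3% GC) to -0.75.

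Marker genes of other cells were read beside Cacna1h. Of the conduction system genes, Cntn2 was higher in the Zeb2 cTg-labelled libraries (log2 fold change 1.60, adjusted p = 0.0415), Hcn4 and Tbx3 did not pass (-0.97 and -0.38), Isl1 and Shox2 lay below the filter, and the 6 listed genes summed to 6.39 to 9.82 CPM in Zeb2 WT IR and 12.5 to 29.3 in Zeb2 cTg IR. Of the atrial genes, Nppa was higher (log2 fold change 2.43, adjusted p = 0.0182) and Myl4 did not pass, with sums of 27.2 to 62.7 and 105.5 to 282 CPM over the 4 listed. The same list summed to 16.46 to 39.35 CPM in WT sham and 223 to 429.3 in WT IR, with 1 of 2 tested genes called higher. Higher atrial sums were thus also seen in WT IR, where the difference in Cacna1h did not pass. Myl7 and Sln had 39 and 7 counts in replicate 3 of Zeb2 cTg IR and at most 1 count in each of the other libraries of that table. Of the 7 nerve genes 6 lay below the filter, Snap25 and Syt1 were at 0 in all 6 libraries, and the list summed to 1.77 to 2.86 and 1.82 to 2.30 CPM. The skeletal muscle genes summed to at most 1.18 CPM. The 6 fibroblast genes summed to 545 to 1082 CPM in Zeb2 WT IR and 349 to 424 in Zeb2 cTg IR, without overlap. Their median log2 fold change was -0.99, 5 of the 6 lay below 0, and 1, the collagen gene Col1a2, was called lower (log2 fold change -1.39, adjusted p = 0.0497). Of the smooth muscle and pericyte genes, Acta2, smooth muscle actin, was higher (log2 fold change 1.67, adjusted p = 0.00463), the other 4 tested did not pass, and the list summed to 449.5 to 487 and 381 to 450.0 CPM. The 5 endothelial and 5 immune genes did not pass (adjusted p from 0.0674 to 0.589 and from 0.106 to 0.621). Of the cardiomyocyte genes 1 of 10, Tnnt2, was higher, with sums of 58360 to 63610 and 64550 to 68300 CPM, and scaling on that list left Cacna1h at 4.92. The part of these cell types in the Cacna1h values was not tested further.

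Cacna1h lies at chr17:25374285-25433783 (GRCm38, minus strand). Tpsg1 overlaps it on the other strand and did not pass the filter on low counts in either table. Tested genes near it on either side did not pass the threshold in the Zeb2 comparison. Tsr3, on one side, was at 0.875 ± 0.0498 CPM in Zeb2 WT IR and 1.08 ± 0.322 in Zeb2 cTg IR (log2 fold change 0.32, SE 0.30, adjusted p = 0.535). Lmf1, 145 kb away on the other side, was at 6.42 ± 0.747 and 9.57 ± 1.97 CPM (0.57, SE 0.18, adjusted p = 0.103), and Rpusd1 at 0.394 ± 0.168 and 0.668 ± 0.400 (0.77, SE 0.53, adjusted p = 0.38). In wild-type hearts Lmf1 was lower after IR (log2 fold change -0.35, SE 0.11, adjusted p = 0.0424), while Tsr3 and Rpusd1 did not pass.

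The genes most like Cacna1h were ranked by the root mean square difference of log2 CPM, centred within each table, over 12 libraries and 12790 genes. Among the 5 nearest were Slc17a7, a vesicular glutamate transporter (0.71), Wif1, a secreted Wnt inhibitor (0.76), Kcne1, a potassium channel subunit (0.90), and Ndnf, a secreted factor (0.93). Slc17a7 was at 2.38, 2.14 and 2.60 CPM in Zeb2 WT IR and 24.8, 14.3 and 19.1 CPM in Zeb2 cTg IR. Kcne1 was at 1.28, 1.25 and 1.47 CPM in Zeb2 WT IR and 9.84, 5.38 and 7.83 CPM in Zeb2 cTg IR. In both genes replicate 2 was the lowest of the second group, an order that ranking on the same 12 libraries favours. Wif1 and Ndnf were also higher in every library of the second group, but Ndnf was highest in replicate 2, at 44.6 CPM. None of these 4 reached the fold change of Cacna1h.

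Beyond the 10 genes, 17 further channel subunit genes were followed. Cacna1s, Cacnb4, Cacng7 and Cachd1 passed the filter on low counts in both tables, and none was called in either comparison with the main edgeR settings. Cacnb4 and Cachd1 were called in wild-type hearts with cardiomyocyte marker scaling, and Cachd1 also without replicate 1 of WT IR. In WT IR against WT sham all 4 had a log2 fold change above 0, from 0.12 to 0.71 (adjusted p from 0.158 to 0.69), and in the Zeb2 comparison they ran from -0.88 to 0.11 (adjusted p from 0.135 to 0.804). Cacna1i, the third T-type pore gene, lay between 0 and 0.191 CPM in all libraries. The neuronal pores Cacna1b and Cacna1e did not exceed 0.522 CPM.

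Of 24 regulators of the channels and of their genes, 21 were tested. Together with the 4 further subunit genes tested, 5 of 25 were called in wild-type hearts, close to the 20.8% of all genes. In the Zeb2 comparison 3 of 25 were called, beside 3.64% of all genes. The RGK proteins are small GTPases that bind beta subunits and shut down high-voltage-activated currents. Of the 3 tested, Gem was higher in WT IR, at 2.04, 1.41 and 1.11 CPM in WT sham and 2.81, 2.86 and 3.62 CPM in WT IR, without overlap (log2 fold change 0.99, SE 0.22, adjusted p = 0.0153). It missed the threshold without replicate 2 or 3 of WT sham or replicate 2 of WT IR (adjusted p from 0.0501 to 0.0906). Rrad, the most abundant of them, did not pass in either comparison (log2 fold change -0.11 and 0.32, adjusted p = 0.681 and 0.422). Gem did not pass in the Zeb2 comparison (-0.22, adjusted p = 0.61). Stac3, the 1 STAC protein gene tested, did not pass in either (-0.01 and 0.05).

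Calmodulin senses calcium at the channel and drives its inactivation, and CaMKII enhances the L-type current. Of 7 genes tested, Calm2 was higher in WT IR (22.5 ± 2.05 against 30.3 ± 4.84 CPM, log2 fold change 0.43, SE 0.12, adjusted p = 0.0345). This call was lost with GC correction and when any 1 sham library or replicate 2 or 3 of WT IR was left out (adjusted p from 0.0617 to 0.161). With the main edgeR settings none was called in the Zeb2 comparison, in which Calm3 lay at the threshold with 34.7, 25.5 and 30.2 CPM in Zeb2 WT IR and 57.6, 40.1 and 50.7 CPM in Zeb2 cTg IR (log2 fold change 0.71, SE 0.17, adjusted p = 0.0502). Calm3 passed in 6 of the 15 settings, namely RLE size factors, no filter on low counts, DESeq2, the replicate block, removal of mitochondrial genes and leaving out replicate 2 of Zeb2 cTg IR. Camk2d, the main cardiac CaMKII gene, differed little in both (log2 fold change -0.08 and -0.12, adjusted p = 0.469 and 0.671).

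Of 7 genes that place or tune channels at the dyad, where L-type channels face the calcium release channels, Jph2 and Sri were called in wild-type hearts. Jph2, which ties the surface membrane to the sarcoplasmic reticulum, was at 131, 116 and 102 CPM in WT sham and 80.3, 57.8 and 55.6 CPM in WT IR, a clear gap between the groups (log2 fold change -0.85, SE 0.15, adjusted p = 0.00734). Sri, which encodes the calcium-binding protein sorcin, was at 12.7 ± 1.13 and 18.5 ± 2.53 CPM (log2 fold change 0.55, SE 0.12, adjusted p = 0.0127). Sri missed the threshold without replicate 2 of WT sham or of WT IR (adjusted p = 0.0785 and 0.0545).

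In the Zeb2 comparison Bin1 and Akap5 were called. Bin1, which shapes transverse tubules and brings Cav1.2 to them, was at 2.64, 1.94 and 2.23 CPM in Zeb2 WT IR and 7.96, 11.6 and 9.54 CPM in Zeb2 cTg IR. All libraries of the second group lay above the first (log2 fold change 2.09, SE 0.20, adjusted p = 0.00157), and the call held under all 15 alternative settings. Akap5, an anchor for kinases and calcineurin at L-type channels, was at 6.16, 7.36 and 4.89 CPM in Zeb2 WT IR and 3.43, 2.48 and 2.78 CPM in Zeb2 cTg IR (log2 fold change -1.08, SE 0.21, adjusted p = 0.0269), and kept its call only without replicate 2 of Zeb2 cTg IR among the 6 fits that left out a library (adjusted p from 0.0503 to 0.113 in the other 5). Jph2 did not pass there (-0.03, adjusted p = 0.941), and Bin1 did not pass in wild-type hearts (0.51, adjusted p = 0.125).

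Of 3 transcription factors linked to channel genes, Nkx2-5, a cardiac homeobox factor, was called in both comparisons. It was at 14.1, 14.1 and 14.5 CPM in WT sham and 7.96, 4.76 and 4.55 CPM in WT IR (log2 fold change -1.30, SE 0.19, adjusted p = 0.00407). It was at 1.58, 0.728 and 1.13 CPM in Zeb2 WT IR and 5.57, 2.10 and 5.56 CPM in Zeb2 cTg IR (log2 fold change 1.94, SE 0.40, adjusted p = 0.0346), a call lost without replicate 2 or 3 of Zeb2 WT IR or replicate 1 or 3 of Zeb2 cTg IR (adjusted p from 0.0932 to 0.147). With GC correction its log2 fold change shrank to -0.67 in wild-type hearts and 1.13 in the Zeb2 comparison, and both calls held. Replicate 2 was the lowest library of Zeb2 cTg IR, as for Cacna1h, and a link between these genes was not tested. Rest, a repressor of the fetal cardiac programme, did not pass in either comparison (log2 fold change 0.14 and -0.28, adjusted p = 0.221 and 0.208), and neither did Egr1, an immediate early gene (0.34 and -0.31, adjusted p = 0.596 and 0.489).

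**Figure D4:**
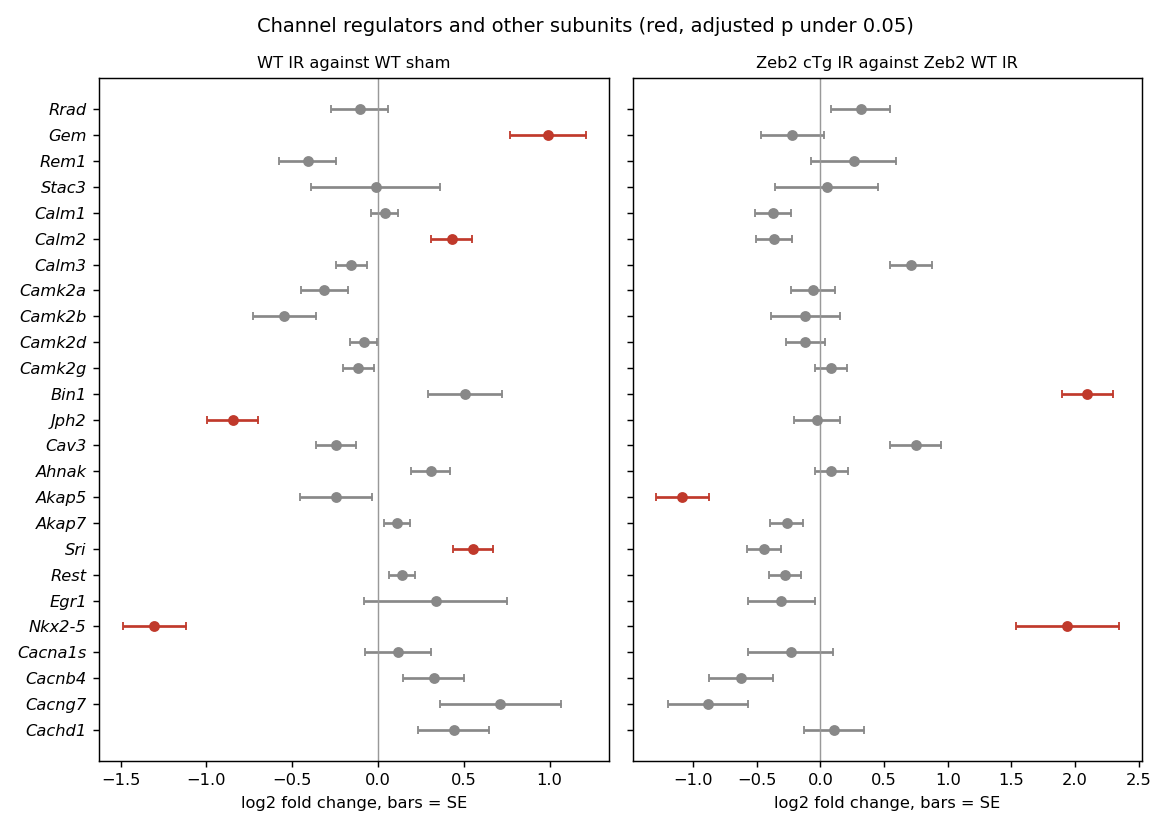
Log2 fold changes of the 25 tested regulators and further subunit genes in WT IR against WT sham (left) and Zeb2 cTg IR against Zeb2 WT IR (right); points are estimates, bars are SE, and red marks an adjusted p under 0.05. Gem, Calm2 and Sri lie above 0 and Jph2 and Nkx2-5 below it on the left, and Bin1 and Nkx2-5 lie above 0 and Akap5 below it on the right.

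The letters CACCT, which ZEB2 is known to bind, were searched on both strands of the RefSeq promoter windows (GRCm38.p6), which held entries for 7 of the 10 genes. All windows of Cacna1c (3) and Cacnb1 (2) and 1 of 2 each for Cacna1d and Cacnb3 held them, and none of the windows of Cacnb2, Cacna2d1 and Cacna2d2 did, beside 51.9% of all 32851 windows. Cacna1a, Cacna1g and Cacna1h had no entry.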

How the data were processed

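The authors deposited raw counts per gene in 2 tables of 6 libraries, one for each comparison. Reads of 75 bases were aligned with STAR 2.4.2a to mm10 and counted with HTSeq 0.6.1 per the submitters' processing notes. The labels name a stranded mRNA kit and the methods a stranded total RNA kit, and whether counting used strand is not given in the sources used here, so a gene and its antisense partner may share reads. No columns were left out. Gene symbols, exon lengths and positions came from GENCODE M21 (GRCm38).

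Each table was fitted alone with edgeR 4.0.16 in R 4.3.3 (TMM, filterByExpr with a minimum count of 10, quasi-likelihood test, 3 libraries a group, no covariate). P-values were adjusted after Benjamini-Hochberg across every gene of a table that passed the filter, and 0.05 was the threshold. CPM used TMM library sizes, and RPKM is CPM per kb of merged exons. Error values are SD over 3 mice, and counting error grows for genes with few counts. Library pairs differed beyond sampling noise. DESeq2 1.42.0 served as an alternative, and the fits were tested on simulated data. The DESeq release the study used was not installed.

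The 10 genes and the lists were chosen with earlier results of these data known. The genes named were the 10 subunits, the listed regulators and further subunits past the threshold in either comparison, Zeb2, the 2 nearest tested genes on each side of Cacna1h and the 5 genes most like it. Others named, among them Calm3, Rrad, Rest, Camk2d and single markers, were chosen after their values were seen. Some genes that these rules name are not reported here.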

Additional observations from a re-analysis of the deposited data

How the results depend on the processing

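Limits come from 3 mice a group, from shallow coverage of Cacna2d2, Cacnb1 and Cacnb3, and from single libraries that moved many calls. The count of subunit genes called in WT IR against WT sham (1) was 3 without a filter on low counts, 2 with DESeq2, 4 with GC correction, 4 with replicate block and GC correction, 2 with cardiomyocyte marker scaling, and 1 to 5 when 1 library was left out. The 5 came without replicate 1 of WT IR, when Cacna1h, Cacnb2, Cacnb3 and Cacna2d1 passed beside Cacna1g. For the Zeb2 comparison no such count is given, since the genes were chosen on the same values. There the log2 fold change of Cacna1h ran from 4.59 to 5.45 over the 15 settings, and that of Cacna1a from 0.77 to 1.36. These ranges make no allowance for that choice. In WT IR against WT sham, Cacna1a turned to 0.050 with GC correction, 0.052 with block and GC correction, 0.24 with marker scaling and 0.026 without replicate 3 of WT sham (-0.19 to 0.026 when 1 library was left out). Cacnb1 turned to 0.0029, 0.0094 and 0.15 under the first 3 of these, and Cacna1c to 0.13, Cacnb2 to 0.083 and Cacna2d1 to 0.035 with marker scaling, which moved the median of all genes by 0.35 here and by -0.17 in the Zeb2 comparison. For regulators, all alternatives were added after the data were seen. Their count in wild-type hearts (5) was 12 with marker scaling and 2 to 11 when 1 library was left out. In the Zeb2 comparison (3) it was 5 without a filter, 5 with DESeq2, 5 with replicate block and 5 with GC correction, and 1 to 7 when 1 library was left out. Jph2 and Nkx2-5 in wild-type hearts and Bin1 in the Zeb2 comparison were called under all 15 settings. Zeb2 in the Zeb2 comparison turned to 0.15 with GC correction, 0.15 with block and GC correction and 0.019 without replicate 3 of Zeb2 WT IR (-0.13 to 0.019 when 1 library was left out). All genes called numbered 421 to 4979 in wild-type hearts when 1 library was left out (2859 with all). In the Zeb2 comparison (474) they numbered 1553 without a filter, 1096 with DESeq2, 1813 with replicate block, 836 with GC correction, 739 with both and 98 to 2419 when 1 library was left out. The labels give replicate numbers but not what same-numbered libraries share. Same-numbered libraries correlated at -0.034, 0.012 and -0.015 in wild-type hearts and 0.13, 0.26 and -0.043 in the Zeb2 table. Other pairs ran from -0.105 to 0.107 and from -0.333 to 0.33, so these values cannot decide it. The block left the count of subunit genes called in wild-type hearts at 1. The causes were not tested.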
